A study of Mus musculus with 6 samples.

Results

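The Z-disc is the protein plate that bounds each sarcomere of a muscle fibre and anchors the thin actin filaments of neighbouring sarcomeres. Its 10 genes described here encode the muscle alpha-actinins and proteins that work beside them at the Z-disc, and they were chosen by name (Actn2, Actn3, Ldb3, Myoz1, Myoz2, Myoz3, Myot, Tcap, Nexn and Synpo2l) from the 22036 genes of the deposited table. All 10 had a row, and 9 passed the filter on low counts; Myoz3 did not. Reads came from nanopore cDNA sequencing of total RNA from quadriceps femoris, a thigh muscle, in 3 libraries of Prr14-WT mice (WT) and 3 of Prr14-KO mice (KO), numbered 1 to 3 in accession order; where 3 values follow each other below they stand in that order. The strain, age and sex of the mice, the part of Prr14 that was removed, and whether it was removed in every tissue are not stated in the labels. PRR14 tethers heterochromatin at the edge of the nucleus, and the series title links it to fibre identity and the transcription factor MEF2C.

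Alpha-actinins form dimers that cross-link actin filaments at the Z-disc. ACTN2 is present in all skeletal fibres and in heart, while ACTN3 is a protein of fast fibres. The calsarcins, encoded by the Myoz genes, bind both actinin and the phosphatase calcineurin; Myoz1 and Myoz3 are known as fast-fibre forms and Myoz2 as the slow-fibre and cardiac form. Whole muscle holds fibres of several types and other cells, so fewer fibres of a type and less RNA per fibre cannot be told apart.

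The libraries held 1436099 to 1712975 counts in listed genes. Levels below are CPM, read counts brought to a common library size after TMM scaling, which takes that size from the bulk of genes; errors are SDs over 3 libraries, and a log2 fold change is KO minus WT. Nothing in the labels says that libraries came from separate animals beyond their titles, so a p-value reflects the variation among these 6 libraries, which may be technical. All 6 markers of muscle fibres on a fixed list, Acta1 and Ckm among them, were detected. Their summed level was lower in each KO library, at 96268 to 107866 CPM against 117466 to 151958 CPM in WT. This gap depends on the scaling, since TMM factors were 0.862 to 0.970 in WT and 1.06 to 1.11 in KO. By library totals the summed levels of the genotypes overlapped, and the log2 fold change of Acta1 was -0.42. Of the 6, 4 were lower in every KO library than in any WT library, where 12.2% of all tested genes were. Acta1, the skeletal actin gene, passed as lower (log2 fold change -0.66, adjusted p = 0.00271 in edgeR). The other 5 did not pass, and 3.28% of all tested genes were called lower. Mb and Mybpc2 had log2 fold changes of -0.04 and 0.03. The targeted gene Prr14 had 9, 11 and 12 counts in WT and 4, 10 and 3 in KO (log2 fold change -1.10, edgeR adjusted p = 0.196), so its counts do not settle the label of KO replicate 2. Of 6680 genes tested, 199 were higher and 219 lower in KO at an adjusted p under 0.05 (649 and 148 when libraries were scaled by their totals, which moved the median log2 fold change of all genes from 0.02 to 0.25).

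Among the Z-disc genes, Nexn was the one that passed the test. Nexn was lower in KO by 1.31 on the log2 scale, while the actinin gene Actn2 and the actinin-binding Synpo2l were higher in every KO library than in any WT library without passing. Myoz1, Tcap, Myot, Actn3 and Ldb3, the more abundant of the others, had log2 fold changes between -0.34 and -0.05. Of 9 tested members, 1 fell and 0 rose by the edgeR quasi-likelihood test, where 3.28% of all tested genes were called lower and 2.98% higher (6.26% in either direction). At an unadjusted p under 0.05, 2 members were higher and 2 lower, where 10.7% of all tested genes were higher and 9.28% lower. DESeq2 and limma-voom each called 1 member higher, and they called 2.11% and 2.26% of all tested genes higher. All KO libraries lay on 1 side of all WT libraries for 3 of the 9 tested members, against 25.8% of all tested genes. A count this small cannot be set apart from that background. The median log2 fold change was -0.12 for the tested members and 0.02 for all tested genes.

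**Figure D1:**
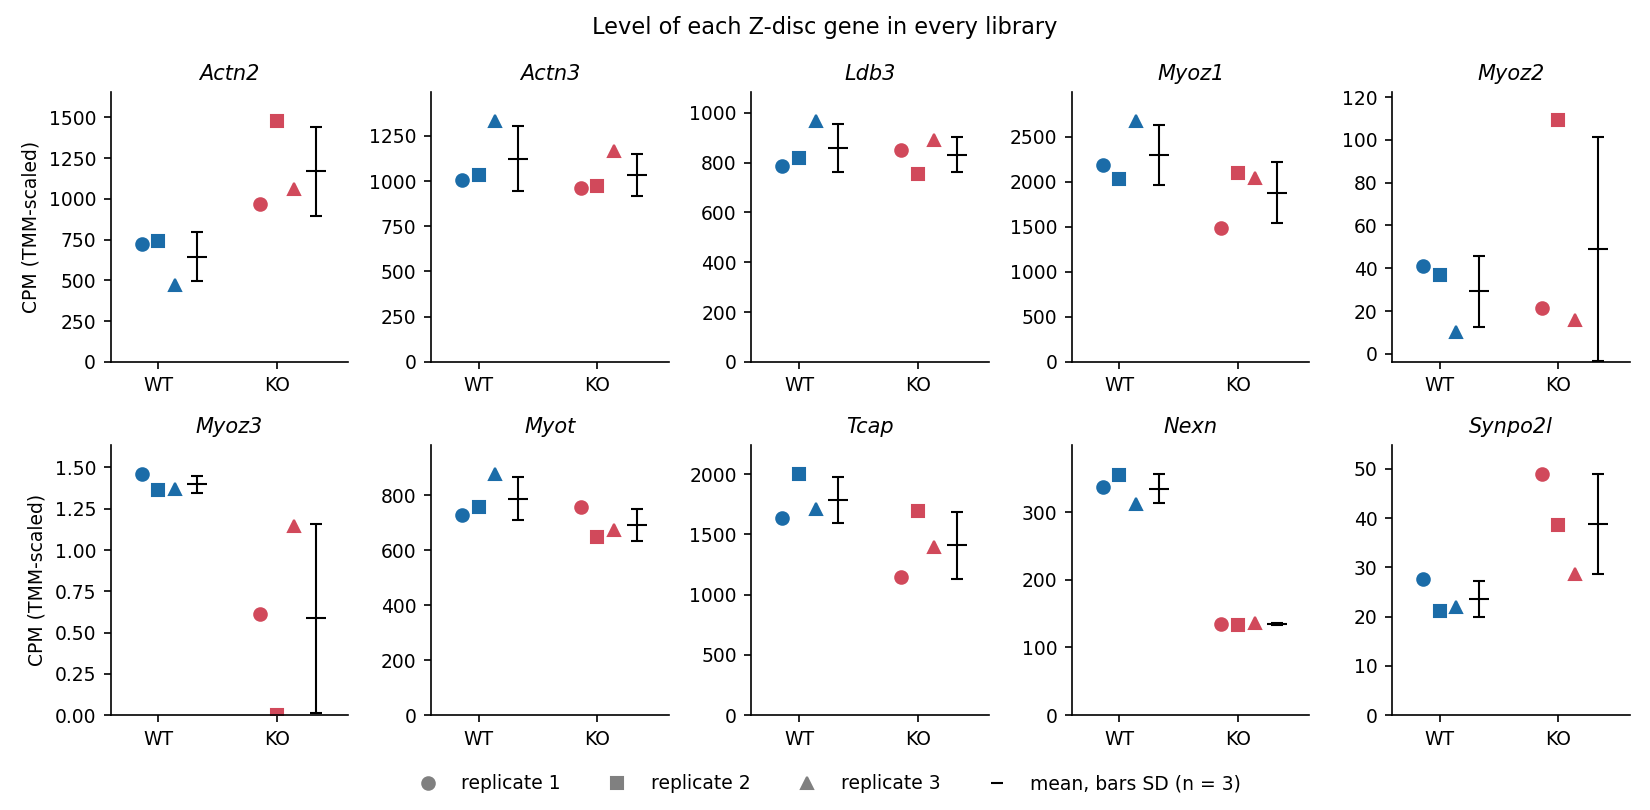
Level of each of the 10 genes (CPM, TMM-scaled, linear axis) in the 3 WT and 3 KO libraries, 1 symbol per library, with mean and SD at the right of each group. Nexn lies between 312 and 354 CPM in WT and between 133 and 136 CPM in KO, and Actn2 lies at 744 CPM or below in WT and at 971 CPM or above in KO.

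Actn2 (ENSMUSG00000052374, GRCm38 chromosome 13, 12269426 to 12340760, minus strand, protein coding) was read 990, 1092 and 687 times in WT and 1587, 2366 and 1846 times in KO. Its level was 722, 744 and 470 CPM in WT and 971, 1478 and 1058 CPM in KO. All KO libraries stood above all WT libraries, with WT replicate 3 the lowest and KO replicate 2 the highest of the 6. WT libraries averaged 646 ± 152 CPM and KO libraries 1169 ± 271 CPM. The log2 fold change was 0.86 (SE 0.22, 95% confidence interval 0.34 to 1.38), and the edgeR adjusted p of 0.0717 missed the threshold. Of 15 other settings, 6 called Actn2 higher, among them DESeq2 (adjusted p = 0.00242), limma-voom (0.0244) and edgeR without WT replicate 3 (0.0467). Every setting gave a positive log2 fold change, between 0.65 and 1.08.

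Actn3 (ENSMUSG00000006457, chromosome 19, 4861216 to 4877909, minus strand, protein coding), the fast-fibre actinin, had a level of 1008, 1031 and 1332 CPM in WT and 961, 972 and 1169 CPM in KO. The groups overlapped, and replicate 3 was the highest library of each genotype. The log2 fold change was -0.12 (SE 0.12, 95% confidence interval -0.38 to 0.14, edgeR adjusted p = 0.651), and its sign turned with library totals and without WT replicate 3. The interval leaves out a halving or a doubling of Actn3 RNA relative to the bulk of genes.

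The ratio of the actinins asks whether the genotype effect differed between them, since library size and transcript length cancel in it. Actn2 made up 41.7%, 41.9% and 26.1% of actinin reads in WT and 50.3%, 60.3% and 47.5% in KO. The share was higher in each KO library than in any WT library, with means of 36.6 ± 9.09% and 52.7 ± 6.75%. The log2 ratio of Actn2 to Actn3 rose from -0.82 ± 0.59 to 0.16 ± 0.39, a difference of 0.98 (p = 0.1 by an exact two-sided permutation test, which cannot go lower with 3 libraries against 3; 0.4 adjusted over the 4 ratios compared). Without WT replicate 3 the difference was 0.63. The sum of both actinin levels was 1731 to 1803 CPM in WT and 1932 to 2450 CPM in KO (p = 0.1, exact permutation test, two-sided). The longest protein-coding transcripts of the pair matched at 75.8% of 2632 aligned bases, with 51 bases as the longest identical run, so a long read spans many differences between them.

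**Figure D2:**
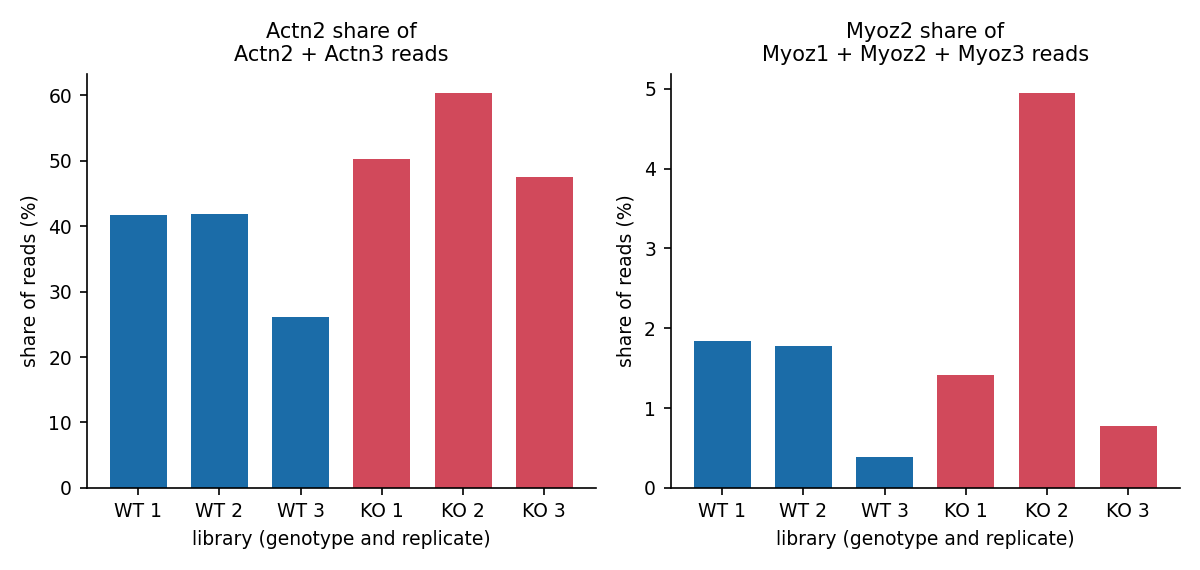
Share of reads (%, linear axis from 0) per library, WT in blue and KO in red, for Actn2 among the actinins on the left and for Myoz2 among the calsarcins on the right. The Actn2 share is at most 41.9% in WT and at least 47.5% in KO, while the Myoz2 share overlaps between genotypes and is highest in KO replicate 2 at 4.94%.

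Of the calsarcins, Myoz1 carried nearly all reads. Myoz1 (ENSMUSG00000068697, chromosome 14, 20649107 to 20656540, minus strand, protein coding) stood at 2184, 2036 and 2677 CPM in WT and 1490, 2102 and 2047 CPM in KO. The groups overlapped, and KO replicate 1 was the lowest library. Its log2 fold change was -0.29 (SE 0.14, 95% confidence interval -0.60 to 0.02, edgeR adjusted p = 0.283). Myoz1 made up 98.6 ± 0.830% of calsarcin reads in WT and 97.6 ± 2.22% in KO (p = 0.7, exact permutation test, two-sided).

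Myoz2 (ENSMUSG00000028116, chromosome 3, 123006206 to 123035015, minus strand, protein coding), the slow-fibre form, was low and spread widely within each genotype. It was read 56, 54 and 15 times in WT and 35, 175 and 28 times in KO, or 40.9, 36.8 and 10.3 CPM and 21.4, 109 and 16.0 CPM. KO replicate 2 was the highest library and WT replicate 3 the lowest, and the highest library exceeded the lowest 3.98-fold within WT and 6.81-fold within KO. The log2 fold change of 0.73 (SE 1.02, 95% confidence interval -2.01 to 3.48, edgeR adjusted p = 0.771) became -0.64 without KO replicate 2, so no direction was established. An annotated microRNA gene, Gm22066, lies within Myoz2 on the same strand.

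Myoz3 (ENSMUSG00000049173, chromosome 18, 60573750 to 60591788, minus strand, protein coding) had 2 counts in each WT library and 1, 0 and 2 counts in the KO libraries. Every library stood under the floor of 3 counts, which is 1.72 to 2.19 CPM, so neither a level nor a fold change could be read at this depth. As a share, Myoz3 was 0.0509% to 0.0657% of calsarcin reads in WT and at most 0.0555% in KO. Myoz1 was the fast calsarcin with reads above that floor.

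A genotype difference between slow Myoz2 and fast Myoz1 was not established. The log2 ratio of Myoz2 to Myoz1 was -5.73, -5.78 and -7.98 in WT and -6.10, -4.26 and -6.97 in KO. The groups overlapped, with a difference of 0.72 between their means (p = 0.6, exact permutation test, two-sided, also 0.6 adjusted over the 4 ratios). Without WT replicate 3 the difference was -0.02 and without KO replicate 2 it was -0.04. The ratios of Myoz2 and of Myoz1 to Myoz3 differed by 1.65 and 0.93 (p = 0.4 and 0.2, exact permutation tests, two-sided, adjusted 0.53 and 0.4), and both rest on the 0 to 2 counts of Myoz3. Transcripts of the calsarcins share little sequence, with 64.4% to 69.9% identity over at most 132 aligned bases.

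The slow-fibre content of the libraries moved with Myoz2. A slow-fibre score, the mean log2 CPM of 11 slow-fibre genes that include no member, was 4.48, 4.18 and 2.11 in WT and 3.66, 5.65 and 2.41 in KO. The 6 libraries fell in the same order by Myoz2 as by this score, and in the opposite order by Ldb3. Myh7, the slow myosin heavy chain, had 82, 60 and 3 counts in WT and 1, 135 and 1 in KO. The slow troponin gene Tnnt1 had 25, 19 and 0 counts in WT and 7, 61 and 0 in KO, and the slow myosin light chain gene Myl2 had 35, 24 and 1 in WT and 17, 128 and 1 in KO. KO replicate 2 was the highest library for these 3 genes, while WT replicate 3 and KO replicate 3 were at or near 0. Not every gene on the list kept the order of the score. Tnnc1, named after its values were seen, had KO replicate 1 above every WT library. Its level was 67.1, 33.4 and 1.37 CPM in WT and 138, 193 and 1.15 CPM in KO. Casq2, the slow-fibre and cardiac calsequestrin gene, also departed from that order. Casq2 stood at 13.9, 17.0 and 16.4 CPM in WT and 42.2, 51.8 and 31.5 CPM in KO. It was the 1 gene of the 9 tested on the list that passed, as higher (log2 fold change 1.40, edgeR adjusted p = 0.0024). Of all tested genes, 2.98% were called higher. The summed level of the slow-fibre list was 84.2 to 465 CPM in WT and 143 to 1472 CPM in KO.

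Actn2 did not keep the order of the slow-fibre score. KO replicates 1 and 3 had lower slow-fibre scores than WT replicates 1 and 2, at 3.66 and 2.41 against 4.48 and 4.18, and higher Actn2 levels, at 971 and 1058 CPM against 722 and 744 CPM. With the score as a covariate the log2 fold change of Actn2 was 0.80 (SE 0.11, edgeR adjusted p = 0.00066). The score is not independent of genotype, since it includes Casq2. KO replicate 2, at 5.65, had a higher score than any WT library. The cause of the Actn2 difference was not tested.

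**Figure D3:**
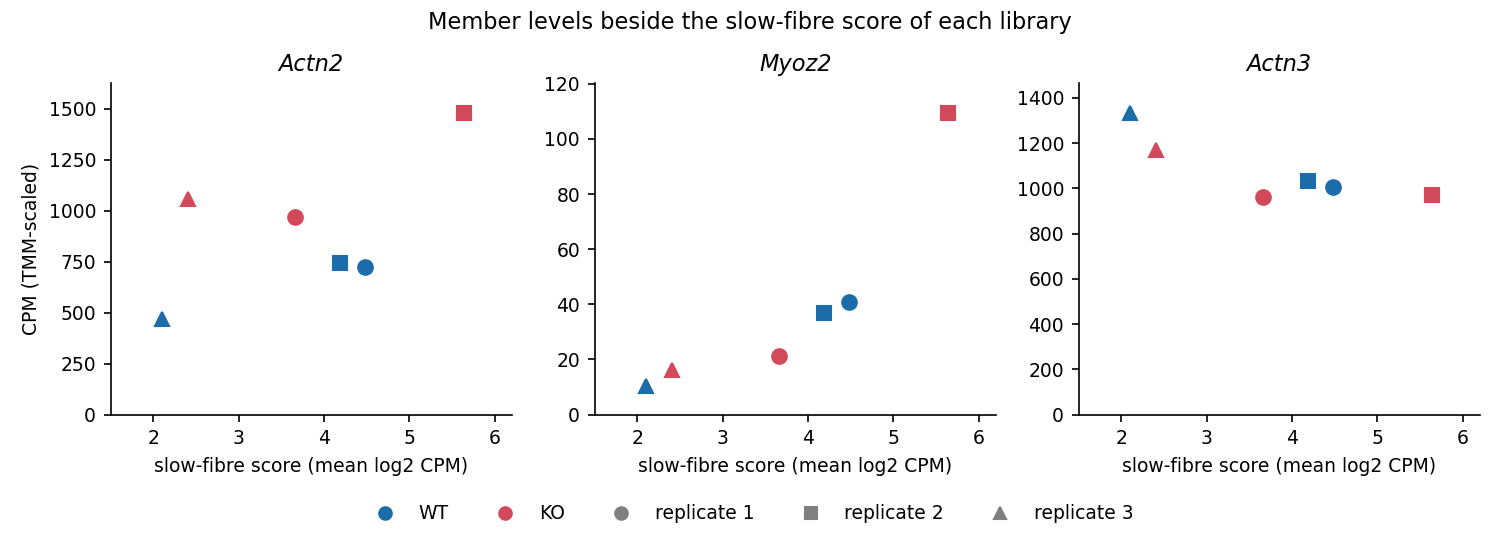
Level of Actn2, Myoz2 and Actn3 (CPM, TMM-scaled, linear axis from 0) against the slow-fibre score (mean log2 CPM of 11 genes) in the 6 libraries, WT in blue and KO in red, with symbols for replicates. Myoz2 follows the score across both genotypes. For Actn2, KO replicate 3 lies above WT replicate 3 at a similar score, at 1058 against 470 CPM. No WT library has a score near that of KO replicate 2.

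Fast-fibre genes outside the member list are given beside Actn3 and Myoz1. Myh4, the type IIB myosin heavy chain gene, went from 21073 ± 2343 to 8214 ± 1137 CPM, a log2 fold change of -1.36 (edgeR adjusted p = 6.73e-06). Of 12 fast-fibre genes tested, 7 fell and 5 did not pass, and 11 were lower at an unadjusted p under 0.05, against 3.28% and 9.28% of all tested genes. The list was written with its direction in these data known. Among those that did not pass, Myh1 went from 4150 ± 981 to 982 ± 677 CPM (edgeR adjusted p = 0.157) and Tnnt3, the fast troponin T gene, from 25667 ± 2896 to 19575 ± 2807 CPM (0.0711). The log2 fold changes of the list ran from -2.08 for Myh1 to -0.28 for Atp2a1, the calcium pump gene of fast fibres. Myoz1 at -0.29 thus lay inside the range of the list, next to Atp2a1 and Tnni2 (-0.34), and Actn3 at -0.12 lay above it. Whether the members differed from these genes was not tested.

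Of the other members, Nexn was the one that passed. Nexn (ENSMUSG00000039103, chromosome 3, 152236982 to 152266350, minus strand, protein coding) encodes nexilin, an actin-binding protein of the Z-disc. It had 463, 520 and 456 counts in WT and 220, 213 and 238 in KO, or 338, 354 and 312 CPM and 135, 133 and 136 CPM. The lowest WT library, at 312 CPM, stood far above the highest KO library, at 136 CPM. The KO libraries had a coefficient of variation of 1.23%, less than counting error alone gives on average at 213 to 238 counts. The mean fell from 335 ± 21.3 to 135 ± 1.65 CPM, 0.402 of the WT level (log2 fold change -1.31, SE 0.12, 95% confidence interval -1.56 to -1.06, edgeR adjusted p = 6.73e-06). All 15 other settings called it lower, with log2 fold changes of -1.37 to -1.08. Gm43185, an annotated transcript of unknown status, overlaps Nexn on the same strand.

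Synpo2l (ENSMUSG00000039376, chromosome 14, 20658946 to 20668354, minus strand, protein coding) encodes an actin-associated protein that binds ACTN2. It was read at 38, 31 and 32 counts in WT and 80, 62 and 50 in KO, or 27.7, 21.1 and 21.9 CPM and 48.9, 38.7 and 28.6 CPM. All KO libraries stood above all WT libraries, with KO replicate 3 at 28.6 CPM close to WT replicate 1 at 27.7 CPM. The log2 fold change was 0.72 (SE 0.24, 95% confidence interval 0.21 to 1.22, edgeR adjusted p = 0.0954). It passed as higher with library totals (0.0262), with no filter (0.0432) and without KO replicate 3 (0.0483), and was positive in all 15 other settings.

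Synpo2l lies 2405 bases from Myoz1 on the same strand of chromosome 14. The log2 ratio of Synpo2l to this neighbour, set side by side after the values were seen and given with no test, was -6.59 ± 0.32 in WT and -5.61 ± 0.63 in KO.

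Ldb3 (ENSMUSG00000021798, chromosome 14, 34526603 to 34588682, minus strand, protein coding) encodes a PDZ and LIM domain protein, also called ZASP or cypher, that binds actinin through its PDZ domain. Its level was 788, 820 and 967 CPM in WT and 850, 754 and 891 CPM in KO. The groups overlapped (log2 fold change -0.05, 95% confidence interval -0.28 to 0.19, edgeR adjusted p = 0.871), and the sign turned in 3 of 15 settings.

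Myot (ENSMUSG00000024471, chromosome 18, 44334074 to 44355724, plus strand, protein coding) encodes myotilin, which binds actinin, actin and filamin. It stood at 730, 758 and 878 CPM in WT and 756, 648 and 673 CPM in KO, and KO replicate 1 fell inside the WT range. The log2 fold change was -0.19 (95% confidence interval -0.42 to 0.04, edgeR adjusted p = 0.365).

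Tcap (ENSMUSG00000007877, chromosome 11, 98383811 to 98384953, plus strand, protein coding) encodes telethonin, which joins the ends of titin molecules at the Z-disc. Its level was 1637, 2000 and 1714 CPM in WT and 1144, 1696 and 1392 CPM in KO. KO replicates 1 and 3 were below every WT library, and KO replicate 2 lay inside the WT range. The log2 fold change was -0.34 (SE 0.13, 95% confidence interval -0.63 to -0.05, edgeR adjusted p = 0.180). Without KO replicate 2 it was -0.49 and passed as lower (edgeR adjusted p = 0.0356), as it did with no filter (0.0382).

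**Figure D4:**
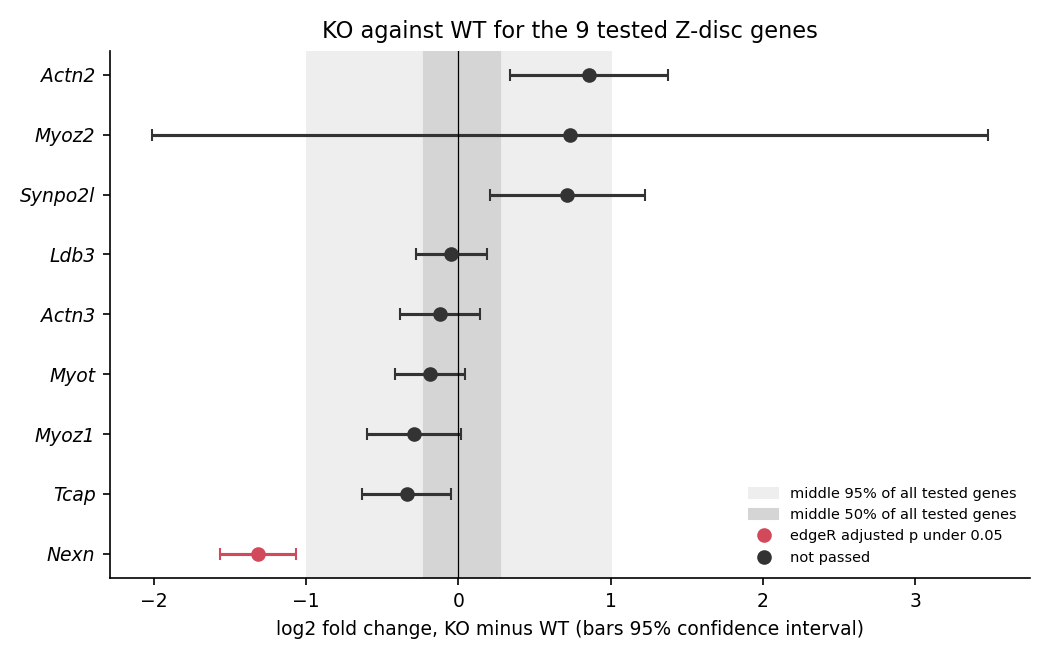
Log2 fold change, KO minus WT, of the 9 tested genes with 95% confidence intervals, red where the edgeR adjusted p was under the threshold, over bands that hold the middle 50% and 95% of all 6680 tested genes. Nexn at -1.31 lies outside the wider band, which runs from -0.99 to 1.00, and the interval of Myoz2 is the widest.

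Per kilobase of the longest annotated transcript, Tcap and Myoz1 were the highest of the 9 genes above the floor in WT at 1882 ± 201 and 1784 ± 260 CPM per kb, with overlapping libraries. Actn3 and Myot followed at 389 ± 62.6 and 357 ± 35.5 CPM per kb, again with overlap, then Actn2 at 214 ± 50.5 and Ldb3 at 168 ± 18.7 CPM per kb, which overlapped as well. Nexn stood below at 131 ± 8.30 CPM per kb, and Myoz2 and Synpo2l were lower still at 12.2 ± 6.89 and 5.37 ± 0.820 CPM per kb, with overlapping libraries. That overlap depends on the length taken. Myoz2 was scaled by 2412 bases, while its longest protein-coding transcript has 1181, which would give a higher level. Myoz3, under the floor in each library, was not ranked. In KO, Actn2 stood at 388 ± 90.0 CPM per kb, above the mean of Actn3 at 358 ± 40.5 CPM per kb with overlapping libraries. A nanopore cDNA read can span a whole transcript, so reads per gene need not grow with length, and by reads alone Myoz1 ranked above Tcap in WT, and Ldb3 above Myot and Actn2.

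The series title names MEF2C, so the starts of the members with a positive log2 fold change are shown here as RefSeq gives them (GRCm38.p6, minus strand, each 250 bases upstream of the transcription start, written 5′ to 3′). The search covered starts of 4 members from RefSeq's table, 6 starts in all. Capitals mark matches on either strand to CTANNNNTAG, a loose form of the MEF2 site, or to CANNTG, the general E-box. N stands for any base, and an E-box match does not name the factor that binds it. GGAATG, the M-CAT site, and the CArG box were searched as well and had no match in these windows.
Actn2 at chr13:12340733-12340982: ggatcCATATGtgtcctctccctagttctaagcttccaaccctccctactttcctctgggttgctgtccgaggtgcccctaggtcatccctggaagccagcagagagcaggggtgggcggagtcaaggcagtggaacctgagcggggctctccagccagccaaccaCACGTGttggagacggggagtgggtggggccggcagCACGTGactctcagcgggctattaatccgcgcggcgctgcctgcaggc
Myoz2 at chr3:123034988-123035237: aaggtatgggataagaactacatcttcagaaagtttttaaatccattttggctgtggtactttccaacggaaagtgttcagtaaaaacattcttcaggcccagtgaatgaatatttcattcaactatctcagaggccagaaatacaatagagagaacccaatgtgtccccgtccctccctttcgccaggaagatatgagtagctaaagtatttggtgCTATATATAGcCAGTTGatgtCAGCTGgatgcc
Synpo2l, outer start, at chr14:20668355-20668604: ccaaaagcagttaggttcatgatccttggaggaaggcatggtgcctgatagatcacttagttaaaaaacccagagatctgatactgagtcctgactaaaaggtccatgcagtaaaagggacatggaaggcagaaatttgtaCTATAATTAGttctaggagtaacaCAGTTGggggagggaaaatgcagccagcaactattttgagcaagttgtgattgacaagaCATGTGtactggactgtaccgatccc
Synpo2l, inner start, at chr14:20664575-20664824: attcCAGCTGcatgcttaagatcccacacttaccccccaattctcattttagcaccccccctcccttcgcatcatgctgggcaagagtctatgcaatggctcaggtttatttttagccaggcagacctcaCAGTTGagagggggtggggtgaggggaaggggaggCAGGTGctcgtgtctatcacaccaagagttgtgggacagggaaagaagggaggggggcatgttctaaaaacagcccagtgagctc

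The MEF2 pattern began 33 bases upstream of the start in Myoz2, just before a pair of E-boxes at 22 and 12 bases, and 109 bases upstream at the outer start of Synpo2l. The inner start of Synpo2l held no match to it and had E-boxes at 246, 120 and 85 bases. The MEF2 pattern also stood 55 bases upstream of the inner start of Ldb3, whose windows overlap and share a CArG box. Its open bases included a C there, and only A and T in Myoz2 and Synpo2l. In all, 3 of the 6 starts searched held it. Those starts belong to 4 members, Actn2, Myoz2, Synpo2l and Ldb3. Chromosome 18, which holds Myot and Myoz3, was left out, and Nexn, Actn3, Myoz1 and Tcap had no start searched. Over 32851 promoter windows of the same length, with no chromosome left out, 3.2% held it. Whether the members differ from that share was not tested. E-boxes stood 245, 84 and 48 bases upstream of the Actn2 start, and 66.2% of all windows hold at least 1. The Actn2 window held no match to the MEF2 pattern, which says only that these letters are not in this window. A match describes sequence and is not a measured binding site.

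The list of other Z-disc genes held 9 that fell and 0 that rose in KO. Of 34 listed, 30 were tested and 21 did not pass, with 12 lower and 3 higher at an unadjusted p under 0.05, where 3.28% of all tested genes were called lower and, unadjusted, 9.28% were lower and 10.7% higher. DESeq2 and limma-voom each called 1 of the list higher. The median log2 fold change was -0.15, against 0.02 for all tested genes, and the list was written with earlier results of these data known. The summed level of the list was 24371 to 24759 CPM in WT and 13640 to 16050 CPM in KO, most of it from Neb and Ttn.

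Partners that run along or anchor the filaments were among those that fell. Neb (nebulin), the ruler protein of the thin filament, went from 11007 ± 586 to 5866 ± 323 CPM (log2 fold change -0.91, edgeR adjusted p = 2.66e-05). Ttn (titin), whose end TCAP holds at the Z-disc, went from 6458 ± 431 to 3289 ± 894 CPM (-0.97, 0.0138), and it did not pass without WT replicate 3 (0.0526) or without KO replicate 2 (0.0598). Mypn (myopalladin), which links nebulin to actinin, went from 169 ± 12.8 to 104 ± 8.29 CPM (-0.70, 0.00559).

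Of 4 listed relatives of Ldb3 with PDZ and LIM domains, 2 fell. Pdlim5 went from 284 ± 46.4 to 126 ± 13.4 CPM (log2 fold change -1.17, edgeR adjusted p = 0.000137), and Pdlim7 from 210 ± 31.3 to 126 ± 23.5 CPM (-0.74, 0.0124), a call lost without WT replicate 3 (0.0608). Pdlim1 and Pdlim3, named after their values were seen, had log2 fold changes of 0.73 and -0.15 and did not pass, though Pdlim1 was higher in every KO library than in any WT library, at 33.2 to 52.5 against 20.5 to 29.9 CPM. Whether these genes differed from Ldb3 in their response was not tested.

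The rest of the 9 were Xirp2, Fhod3, Sorbs2 and Smpx. Xirp2, a Xin-repeat protein that binds actin, went from 493 ± 80.0 to 211 ± 39.5 CPM, and Fhod3, a formin that assembles actin, from 15.6 ± 4.12 to 4.42 ± 1.29 CPM (edgeR adjusted p = 0.000236 and 0.00672). Sorbs2, an adaptor with SH3 domains, went from 25.2 ± 9.66 to 9.85 ± 1.01 CPM (0.0164), and did not pass with limma-voom (adjusted p = 0.0583) or when WT replicate 1 or 3 or KO replicate 2 or 3 was left out (edgeR adjusted p 0.0502 to 0.0881). Smpx, a small muscle protein, went from 419 ± 14.0 to 317 ± 35.1 CPM (0.0479), and 10 of 15 settings did not call it. Fhl1, a LIM-only protein named after its values were seen, went from 1113, 1033 and 454 CPM in WT to 72.2, 145 and 52.1 CPM in KO and did not pass (log2 fold change -3.27, edgeR adjusted p = 0.0611).

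The calcineurin genes stand beside the calsarcins, which bind that phosphatase. Of 7 listed, 5 were tested, and 1 fell and 4 did not pass, with 2 lower at an unadjusted p under 0.05, against 3.28% and 9.28% of all tested genes. Ppp3ca, a catalytic subunit, went from 34.2 ± 4.86 to 17.3 ± 6.39 CPM (log2 fold change -0.97, edgeR adjusted p = 0.0387), and the call held in 7 of 15 settings. It was lost with library totals, DESeq2 and robust=FALSE (adjusted p 0.0522 to 0.0729) and without any 1 of WT replicates 1 to 3 and KO replicates 1 and 2 (edgeR adjusted p 0.0563 to 0.119).

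Markers of cells other than fibres overlapped between the genotypes in summed level. Smooth muscle and pericyte genes, which include Des that fibres also express, summed to 1267 to 1399 CPM in WT and 1305 to 2096 CPM in KO, with KO replicate 2 the highest. Of the 5 tested on that list, Acta2 and Myh11 were higher in every KO library than in any WT library, against 13.5% of all tested genes. Neither passed (edgeR adjusted p = 0.231 and 0.306). Endothelial genes summed to 227 to 369 and 307 to 359 CPM, fibroblast and tendon genes to 1411 to 2261 and 1422 to 2108 CPM, and leukocyte genes to 152 to 476 and 169 to 201 CPM. Red blood cell genes stood at 1623 to 4002 and 1401 to 2016 CPM, adipocyte genes at 101 to 592 and 291 to 490 CPM, Schwann cell genes at 18.5 to 43.0 and 20.8 to 29.2 CPM, and satellite cell genes at 8.18 to 21.2 and 7.34 to 11.5 CPM. All listed markers had at least 1 count in some library, and their part in the results was not tested.

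**Figure D5:**
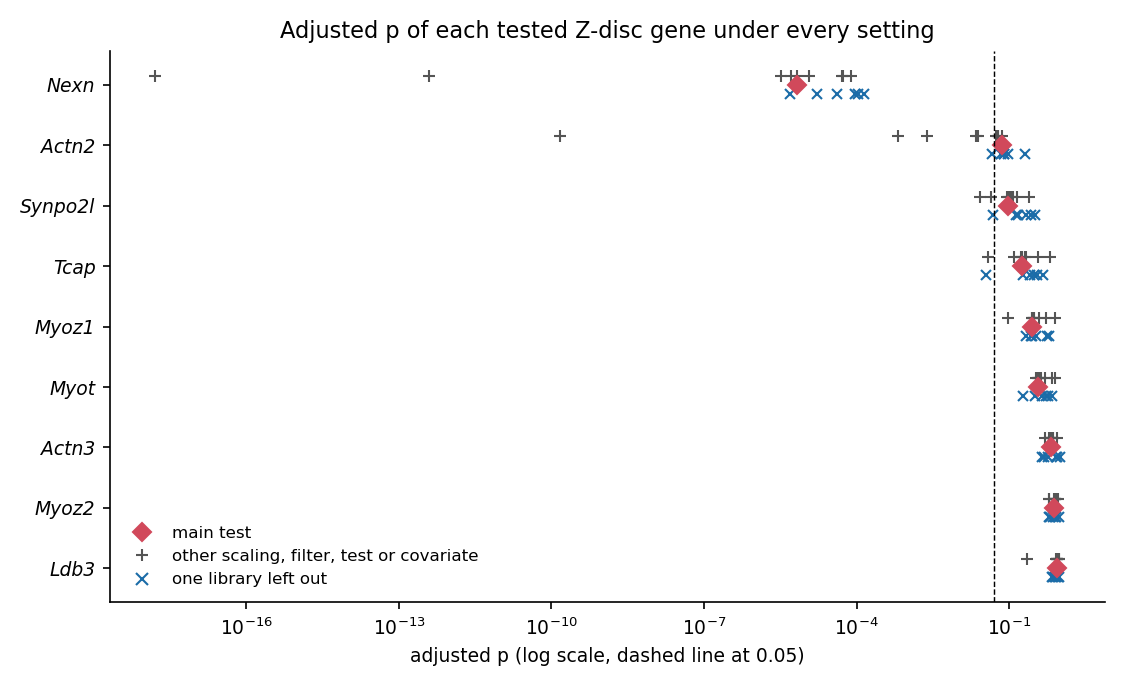
Adjusted p (log axis, dashed line at 0.05) of each tested Z-disc gene under the main test, under other scalings, filters, tests and the slow-fibre covariate, and with 1 library left out. Nexn stays left of the line in every setting, Actn2 crosses it in 6, Synpo2l in 3 and Tcap in 2 of 15, and the other genes stay to the right.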

How the data were processed

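Per the labels' protocols, TRIzol RNA was made into cDNA by template switching, amplified by PCR and read on a PromethION. The build GRCm38 and the tools minimap2 and DESeq2 1.6.3 are named in the submitters' processing notes; no source used here gives the read counter, the annotation release or the strand setting. The authors deposited whole read counts per Ensembl gene, not normalized, and CPM, per the file headers; the CPM were not used. Positions and transcript lengths are from GENCODE M21 on GRCm38, and a reference table matched 22022 of 22036 gene identifiers.

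The deposited counts were fitted with edgeR 4.0.16 in R 4.3.3, using filterByExpr (minimum count 10, minimum total 15), TMM, and the robust quasi-likelihood test, with Benjamini-Hochberg adjustment over all 6680 tested genes at a threshold of 0.05. An SE is the fold change divided by the square root of F. Ratios per library are log2 of counts plus 0.5, with exact two-sided permutation tests. The steps were tested on simulated counts, where 16.7% of 1.5-fold, 70.2% of 2-fold and 97.8% of 4-fold changes were called. Alternatives used other scalings and filters, DESeq2 1.42.0, limma 3.58.1 with voom, robust=FALSE, a slow-fibre covariate and each library left out. All 10 members are named whatever their values, as is every passing gene of the other Z-disc and calcineurin lists. The members and lists were chosen with earlier results of these data known. The reads carry no molecular identifiers, so floors cover counting error only.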

Additional observations from a re-analysis of the deposited data

How the results depend on the processing

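No paired analysis was possible because the sample titles of WT and KO share only 1 number. With library totals 1 Z-disc member was called higher, 649 of all genes were higher and 3 other Z-disc genes were higher. With no filter the counts were 2 members higher and 2 lower, 344 genes higher and 362 lower, and 2 other Z-disc genes higher. DESeq2, robust=FALSE, limma-voom and the slow-fibre covariate each called 1 member and 1 other Z-disc gene higher. With 1 library left out in turn, 0 to 1 members were higher and 1 to 2 lower, 83 to 179 genes were higher, and 0 to 1 other Z-disc genes were higher. Leaving out WT replicate 1, 2 or 3 gave 101, 83 and 129 genes higher. Other Z-disc genes called lower numbered 6 to 11 in all settings. The difference in the Myoz2 to Myoz1 ratio ranged from -0.041 to 1.31 with 1 library left out, and the cause was not tested. With library totals the log2 fold changes of Actn3, Ldb3 and Myot were 0.12, 0.19 and 0.050, where the median of all genes was 0.25. With 1 library left out, the log2 fold change ranged from -0.22 to 0.014 for Actn3, from -0.13 to 0.042 for Ldb3 and from -0.64 to 1.16 for Myoz2. Pseudocount 5 left all 4 ratio differences positive, at 0.97 (Actn2 to Actn3), 0.66 (Myoz2 to Myoz1), 0.81 (Myoz2 to Myoz3) and 0.15 (Myoz1 to Myoz3). Depth left Myoz3 untested. Among tested members Myoz2 had the largest SE, 1.02, which was 0.23 with the slow-fibre covariate.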
